A study of Mus musculus with 8 samples.

Results

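The genes described here are the mouse MHC class II system and its RFX regulators, 10 genes of the 48328 in the deposited FPKM table. FPKM are fragment numbers scaled to the length of the transcript and to the mapped fragments of the library. The members were named by symbol: the RFX subunits Rfxap, Rfxank and Rfx5, the coactivator Ciita, the invariant chain Cd74, the chains H2-Aa, H2-Ab1 and H2-Eb1, and the DM chains H2-DMa and H2-DMb1. Rfxap was chosen by its lower value in K320E-skm muscle, so its difference between the genotypes is given as a description with no test. The other 9 members were taken for their place in the same system.

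Total RNA came from the tibialis anterior, a mainly fast muscle on the front of the shin, of C57BL/6J mice aged 24 months. Each genotype, K320E-skm and wild-type, had 4 libraries, 2 labelled male and 2 labelled female. K320E-skm mice express, in skeletal muscle, a dominant variant of the mitochondrial DNA helicase Twinkle, the product of Twnk. The labels give no Cre driver, no alleles of the wild-type mice and no relation between the animals, so each p-value covers only the spread between the samples at hand.

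Class II molecules are dimers of an alpha and a beta chain that show peptides from the endocytic pathway to CD4 T cells. Their genes are read mainly in dendritic cells, B cells and macrophages, and many other cells can be induced to read them by interferon gamma. RFX, a trimer of RFX5, RFXAP and RFXANK, binds the X box of the class II promoters beside NF-Y and CREB, and CIITA joins this assembly as the coactivator without binding DNA itself. Loss of any RFX subunit or of CIITA abolishes class II expression in the inherited bare lymphocyte syndrome. Mice of the C57BL/6 background carry a null H2-Ea allele, so H2-Eb1 RNA is made there without an I-E dimer at the surface.

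The promoters of H2-Aa and H2-Eb1 are shown because RFX is known to act on the chain genes through the X box, and letters matching its core stand there beside a Y box. Capitals mark an X box core (GNAAC) and a Y box (ATTGG, the reverse complement of CCAAT), 5′ to 3′ on the strand of the gene. The H2-Aa stretch is chr17:34287862-34287914 on the minus strand and the H2-Eb1 stretch is chr17:34305766-34305817 on the plus strand, both from RefSeq on GRCm38.p6.
H2-Aa: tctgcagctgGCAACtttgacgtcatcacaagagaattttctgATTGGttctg
H2-Eb1: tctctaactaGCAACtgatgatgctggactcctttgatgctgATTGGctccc

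The X core began 81 bases before the RefSeq start in H2-Aa and 91 bases before it in H2-Eb1. The Y box began 33 bases after the X core in H2-Aa and 32 bases after it in H2-Eb1. In H2-Aa a CRE core (TGACG), the kind of site bound by CREB, began 7 bases after the X core. H2-DMb1 held the same pair at a spacing of 33 bases, within a stretch that GENCODE M21 places in the first exon of that gene.

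RefSeq promoter entries were matched for 6 of the 10 members: Rfxank, Rfx5, H2-Aa, H2-Eb1, H2-DMa and H2-DMb1. An X core and a Y box 30 to 33 bases apart in the same orientation stood in 3 of these 6, H2-Aa, H2-Eb1 and H2-DMb1, and in 3 of 4 other chain genes, H2-Oa, H2-Ob and H2-Eb2. The pair stood in 193 of 32851 promoters, or 0.588%, within 250 bases before the start on either strand. The spacing was chosen after these promoters had been read, so the counts are a description. Alone, the X core stood in 79.6% of the promoters, the Y box in 33.9% and the CRE core in 17.8%.

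**Figure D1:**
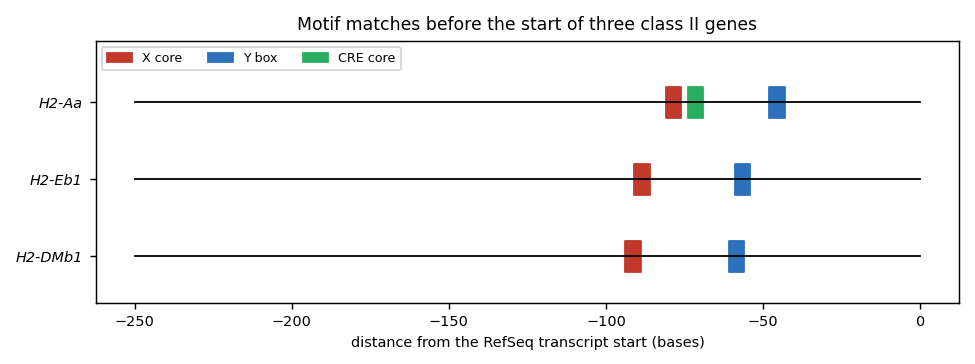
Positions of the X core (red), the Y box (blue) and the CRE core (green) in bases before the RefSeq transcript start (0) of H2-Aa, H2-Eb1 and H2-DMb1; each line is the 250-base window. The X core and the Y box lie 32 or 33 bases apart in all 3 genes, and H2-Aa also has a CRE core in the window.

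The FPKM total of a library lay between 731824 and 858029, and since no counts are given the depth in fragments is unknown. Twnk lay between 3.82 and 5.06 FPKM in K320E-skm and between 2.16 and 2.70 in wild-type, with no overlap. The library labelled K320E-skm 4 is labelled male but listed Xist at 10.2 FPKM and Y-linked genes at a sum of 0.0935 FPKM, against 38.7 to 47.3 in the other libraries labelled male. Wild-type 1 stood apart by its B cell and T cell markers. It also listed 11581 genes at 1 FPKM or more, against 10167 to 10794 in the other libraries. Of the 10521 genes tested with limma, 2 passed an adjusted p of 0.05, or 0.0190%, and 79.5% of all tested genes had a log2 fold change below 0, with a median of −0.14.

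Rfxap (ENSMUSG00000036615, chromosome 3, 54803115 to 54807791, minus strand, GRCm38) encodes the RFX-associated protein, a subunit of the trimer. It measured 3.96, 2.56, 2.47 and 3.62 FPKM in K320E-skm libraries 1 to 4, and the wild-type libraries 1 to 4 gave 6.87, 4.64, 6.57 and 4.75 FPKM. Every K320E-skm library lay below every wild-type library. The means were 3.15 ± 0.752 (SD, n = 4) and 5.71 ± 1.18 FPKM (SD, n = 4), a ratio of 0.552. On the scale of log2(FPKM + 1) the difference was −0.69 (SE 0.10), or −0.55 relative to the median tested gene. Non-overlapping genotypes with the lower values in K320E-skm were found in 9.59% of tested genes, and 12.0% had an unadjusted limma p under 0.05 in that direction. In bulk muscle, fewer cells of a type and less RNA per cell cannot be told apart.

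Rfxap also ordered by sex label, in the same values by which it was chosen. In both genotypes the 2 libraries labelled male were above the 2 labelled female, by 0.44 on the log2 scale (SE 0.10). This difference is given as a description with no test. One of the 4 libraries labelled male is K320E-skm 4, whose Xist value goes against its label. Without that library the genotype difference of Rfxap was −0.67 (SE 0.13), and without wild-type 1 it was −0.68 (SE 0.09).

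The nearest protein-coding gene on the side of lower coordinates is Smad9, a mediator of BMP signals, 1858 bases away. It averaged 0.144 ± 0.0805 FPKM in K320E-skm against 0.210 ± 0.0454 in wild-type (SD, n = 4 each), with overlapping groups and an exact two-sided permutation p of 0.171. Sertm1, 89277 bases away on the other side, was listed at 0 in all 8 libraries. No gene of GENCODE M21 overlaps Rfxap.

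Rfx5 (ENSMUSG00000005774, chromosome 3, 94954075 to 94961561) encodes the subunit with the winged-helix DNA-binding domain. It measured 1.29, 1.70, 1.91 and 1.60 FPKM in K320E-skm libraries 1 to 4, and the wild-type libraries 1 to 4 gave 1.56, 1.87, 1.12 and 1.42 FPKM. The groups overlapped, with K320E-skm 3 highest and wild-type 3 lowest. The log2 fold change was 0.08 (SE 0.12; 95% interval −0.19 to 0.35), with a limma adjusted p of 0.773.

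Rfxank (ENSMUSG00000036120, chromosome 8, 70130794 to 70139154), the ankyrin-repeat subunit, was below 1 FPKM in every library but wild-type 1. It measured 0.673, 0.835, 0.752 and 0.866 FPKM in K320E-skm libraries 1 to 4, and the wild-type libraries 1 to 4 gave 1.24, 0.898, 0.879 and 0.818 FPKM. The groups overlapped through K320E-skm 2 and 4, and the exact two-sided permutation p was 0.114. Rfxank overlaps Nr2c2ap on the opposite strand, as Ciita does Dexi, Rfx5 does B230398E01Rik and H2-Eb1 does Gm20513; with the strand setting of the counting not stated, fragments of such pairs may be mixed.

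The ratio of Rfxap to Rfx5 FPKM within a library was 2.03 ± 0.805 in K320E-skm and 4.03 ± 1.47 in wild-type (SD, n = 4 each), and the groups overlapped. This ratio includes the gene chosen by its genotype difference, so it has no test. Rfxap stood above Rfx5 in all 8 libraries.

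Ciita (ENSMUSG00000022504, chromosome 16, 10480059 to 10528418), whose amount usually sets the class II level of a cell, was low throughout. It measured 0.359, 0.257, 0.431 and 0.337 FPKM in K320E-skm libraries 1 to 4, and the wild-type libraries 1 to 4 gave 0.830, 0.470, 0.297 and 0.206 FPKM. Wild-type 1 was highest and wild-type 4 lowest, so all K320E-skm libraries lay inside the wild-type range. The exact two-sided permutation p was 0.657. With no filter on low values, limma gave a log2 fold change of −0.09 with an adjusted p of 0.807 for Ciita and −0.13 with an adjusted p of 0.731 for Rfxank.

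Cd74 (ENSMUSG00000024610, chromosome 18, 60803848 to 60812652) encodes the invariant chain, which fills the groove of new class II dimers and guides them to the endosome. It measured 59.9, 39.1, 69.2 and 32.6 FPKM in K320E-skm libraries 1 to 4, and the wild-type libraries 1 to 4 gave 87.2, 54.7, 26.0 and 26.4 FPKM. Wild-type libraries were both the highest and the lowest, 3.36-fold apart. The K320E-skm mean was 50.2 ± 17.2 FPKM and the wild-type mean 48.5 ± 29.0 (SD, n = 4 each). The log2 fold change was 0.17 (SE 0.40; 95% interval −0.74 to 1.07), with a limma adjusted p of 0.859. Without wild-type 1 it was 0.56 and without K320E-skm 4 it was 0.39, and neither passed the threshold (adjusted p = 0.606 and 0.701 in limma). Over all runs with 1 library left out it ranged from −0.12 to 0.56.

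The classical chain genes lie together on chromosome 17. H2-Aa (ENSMUSG00000036594, 34282744 to 34287823), the I-A alpha chain, measured 34.4, 22.7, 45.3 and 18.7 FPKM in K320E-skm libraries 1 to 4, and the wild-type libraries 1 to 4 gave 53.6, 28.5, 15.8 and 14.3 FPKM. H2-Ab1 (ENSMUSG00000073421, 34257689 to 34269419), the I-A beta chain, measured 22.1, 14.7, 29.7 and 12.0 FPKM in K320E-skm libraries 1 to 4, and the wild-type libraries 1 to 4 gave 32.5, 24.3, 10.6 and 10.2 FPKM. H2-Eb1 (ENSMUSG00000060586, 34305867 to 34316674), the I-E beta chain, measured 21.5, 14.4, 29.2 and 12.0 FPKM in K320E-skm libraries 1 to 4, and the wild-type libraries 1 to 4 gave 28.6, 17.9, 9.78 and 10.8 FPKM. For all 3 chains the genotypes overlapped, K320E-skm 3 and wild-type 1 were the highest, and wild-type 3 and 4 were the lowest.

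None of the chains differed between the genotypes beyond this spread. The log2 fold change of H2-Aa was 0.22 (SE 0.42; 95% interval −0.72 to 1.16; limma adjusted p = 0.815). H2-Ab1 had 0.10 (SE 0.40; 95% interval −0.80 to 1.00; limma adjusted p = 0.921). H2-Eb1 had 0.23 (SE 0.36; 95% interval −0.58 to 1.05; limma adjusted p = 0.774). The intervals of all 3 chains include both −0.58 and 1.00. Without wild-type 1 the log2 fold changes were 0.65, 0.46 and 0.59 in that order, and without K320E-skm 4 they were 0.47, 0.32 and 0.45; none passed the threshold. With array weights they were 0.84, 0.71 and 0.74, and Cd74 was at 0.76 (limma adjusted p = 0.217, 0.270, 0.218 and 0.231). Other left-out libraries lowered the values. Over all runs with 1 library left out, H2-Aa ranged from −0.055 to 0.65, H2-Ab1 from −0.19 to 0.46 and H2-Eb1 from −0.020 to 0.59.

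H2-DMa and H2-DMb1 form the DM dimer, which exchanges the invariant chain peptide for other peptides. H2-DMa (ENSMUSG00000037649, chromosome 17, 34119541 to 34139101) measured 1.76, 1.58, 2.72 and 1.37 FPKM in K320E-skm libraries 1 to 4, and the wild-type libraries 1 to 4 gave 3.19, 2.76, 0.732 and 1.53 FPKM. H2-DMb1 (ENSMUSG00000079547, chromosome 17, 34153072 to 34160230) measured 1.44, 1.26, 2.35 and 0.840 FPKM in K320E-skm libraries 1 to 4, and the wild-type libraries 1 to 4 gave 2.30, 1.09, 0.741 and 0.793 FPKM. The genotypes overlapped for both, with wild-type 3 lowest. The log2 fold change was −0.04 for H2-DMa (SE 0.27; 95% interval −0.63 to 0.56; limma adjusted p = 0.957), and 0.10 after median-ratio rescaling of the libraries. For H2-DMb1 it was 0.16 (SE 0.24; 95% interval −0.38 to 0.71; limma adjusted p = 0.763). H2-DMa overlaps Brd2 on the opposite strand and H2-DMb1 has a close paralog, H2-DMb2, so the division of fragments between these genes is uncertain.

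Besides Rfxap, 7 of the 9 other members passed the filter of 1 FPKM in at least 4 libraries. Of these 7, 0 passed the adjusted threshold and 0 had an unadjusted p under 0.05 in limma, where 12.0% of all tested genes did so with lower and 1.12% with higher values in K320E-skm. Their log2 fold changes were above 0 in 6 and below 0 in 1, with a median of 0.16 (0.28 after median-ratio rescaling) against −0.14 for all tested genes. None had genotypes without overlap, against 9.59% of tested genes with the lower and 0.333% with the higher values in K320E-skm. The interaction of genotype and sex label passed for 0 of the 7 members, for none at an unadjusted p under 0.05, and for 0.0190% of all tested genes in limma. It rests on 2 libraries per label and genotype, and the Xist value of K320E-skm 4 goes against its male label. The sex term of the other fits uses the same labels, and no fit used a sex read from expression.

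**Figure D2:**
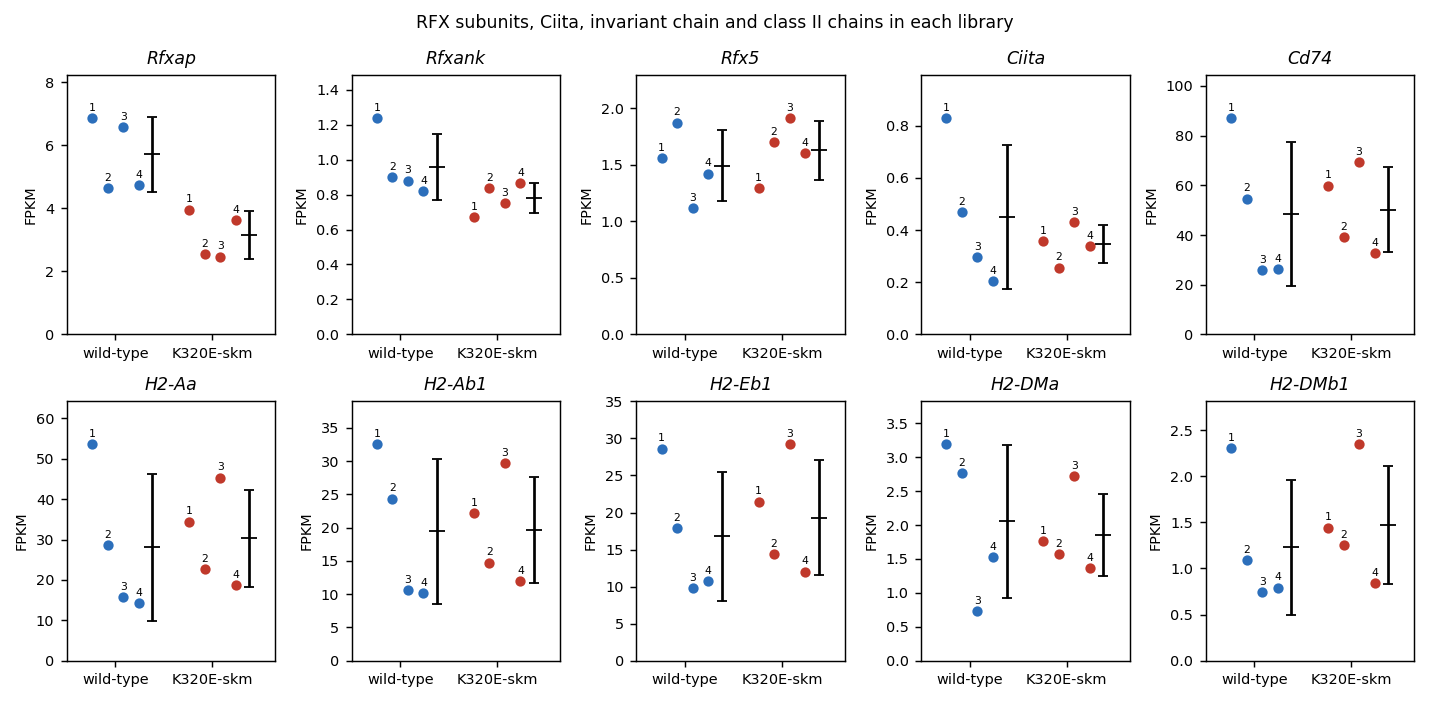
FPKM of the 10 members (vertical axes, each from 0) in wild-type (blue) and K320E-skm (red) libraries numbered by replicate; the horizontal tick and bar are the mean and SD of 4 libraries. The genotypes are separate in Rfxap, at 2.47 to 3.96 against 4.64 to 6.87 FPKM, and overlap in the other 9 genes.

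By mean FPKM over the 8 libraries, Cd74 led with 49.4, followed by H2-Aa with 29.2, H2-Ab1 with 19.5 and H2-Eb1 with 18.0. Cd74 was above H2-Aa, and H2-Aa above H2-Ab1, in all 8 libraries. H2-Ab1 was above H2-Eb1 in 6 of 8. The regulators and the DM chains lay well below, from Rfxap at 4.43 through H2-DMa at 1.95, Rfx5 at 1.56, H2-DMb1 at 1.35 and Rfxank at 0.870 to Ciita at 0.398 FPKM. Neighbours in this order from H2-DMa down to Rfxank changed places between libraries, each above the next in only 5 of 8, while Rfxank was above Ciita in all 8. In wild-type muscle the mean of Cd74 was above that of 93.3% of the tested genes, Rfxap above 55.9% and H2-DMb1 above 4.47%.

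The levels of Cd74 and the 3 chains ranged 2.99-fold to 3.75-fold over the libraries, and their proportions ranged less. The ratio of Cd74 to the summed FPKM of H2-Aa, H2-Ab1 and H2-Eb1 lay between 0.664 and 0.772 in all 8 libraries. Its means were 0.737 ± 0.0489 in K320E-skm and 0.749 ± 0.0237 in wild-type (SD, n = 4 each; exact two-sided permutation p = 0.771). The ratio of H2-Aa to H2-Ab1 was 1.54 ± 0.0157 in K320E-skm and 1.43 ± 0.199 in wild-type (SD, n = 4 each; exact two-sided permutation p = 0.314). Without wild-type 1, the library with the highest ratio, this log2 difference grew from 0.12 to 0.20. The exact permutation p was then 0.0286, the smallest that 4 against 3 libraries allow. It comes from runs that left out each library in turn for each of 3 ratios, and was not adjusted over them. The ratio of H2-DMa to H2-DMb1 was 1.31 ± 0.212 and 1.71 ± 0.674 (SD, n = 4 each; exact two-sided permutation p = 0.4).

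Over the 8 libraries the level of Cd74 correlated with those of the chains, the DM genes and Ciita. Pearson's r of log2(FPKM + 1) with Cd74 was 0.990 for H2-Aa, 0.988 for H2-Ab1 and 0.981 for H2-Eb1, each with an exact permutation p of 0.000496 after Benjamini-Hochberg adjustment over 12 relations. Spearman's rho was 0.976, 0.952 and 0.976 (adjusted exact permutation p = 0.00238, 0.00342 and 0.00238). For Ciita r was 0.825 and rho 0.810 (adjusted exact permutation p = 0.00660 and 0.0327), and 0.901 on deviations from the genotype means. For H2-DMb1 and H2-DMa r was 0.916 and 0.882 and rho 0.952 and 0.905 (adjusted exact permutation p = 0.00351, 0.00833, 0.00342 and 0.00913). Without the 2 libraries farthest from the median of Cd74, wild-type 1 and 3, r was 0.986, 0.986 and 0.969 for the chains, 0.819 for Ciita, 0.846 for H2-DMb1 and 0.781 for H2-DMa.

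Rfx5 had r = 0.477 and rho = 0.452 with Cd74 (adjusted exact permutation p = 0.276 and 0.357), and r = 0.371 without those 2 libraries. Rfxank had r = 0.289 and rho = 0 (adjusted exact permutation p = 0.591 and 1), and r = −0.479 without them. For Rfxap r was −0.066 and rho −0.143, with r = −0.349 without them and 0.094 on deviations from the genotype means. These Rfxap values are a description, because the gene was chosen by its genotype difference in the same libraries. Its p-values entered the adjustment of the other relations but are not read as a test. The ratio of Cd74 to Rfxap ranged from 3.95 in wild-type 3 to 28.1 in K320E-skm 3.

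**Figure D3:**
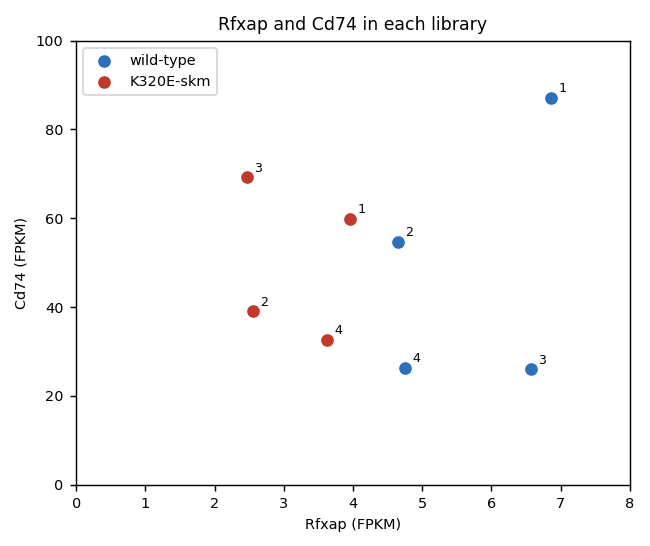
Cd74 FPKM (vertical axis) against Rfxap FPKM (horizontal axis) in each library, numbered by replicate, wild-type in blue and K320E-skm in red. K320E-skm 3 has the lowest Rfxap, 2.47, with the second highest Cd74, 69.2, and wild-type 3 has Rfxap at 6.57 with the lowest Cd74, 26.0.

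Of the marker genes, 3 were set against Cd74, 1 each for leukocytes, macrophages and B cells. Ptprc, the pan-leukocyte phosphatase CD45, had r = 0.921 and rho = 0.905 with Cd74 (adjusted exact permutation p = 0.00327 and 0.00913), and r = 0.850 without wild-type 1 and 3. C1qa, a complement gene of macrophages, had r = 0.881 and rho = 0.881 (adjusted exact permutation p = 0.0108 and 0.0124), and r = 0.781 without them. Cd79a, a subunit of the B cell receptor, had r = 0.617 and rho = 0.286 (adjusted exact permutation p = 0.0760 and 0.601), and r = 0.404 without them. The macrophage sum did not keep the order of Cd74: it was highest in K320E-skm 1, at 146 FPKM, and K320E-skm 2, at 122, was above K320E-skm 3, at 109. The part of cell numbers in these relations was not tested.

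The summed FPKM of the 5 leukocyte genes lay between 7.74 and 19.6 in K320E-skm and between 6.25 and 32.0 in wild-type. Of these 5, 0 passed the threshold, 5 had a log2 fold change below 0 and the median was −0.01 (0.11 after rescaling). The examples by smallest p were Laptm5 at −0.14, Ptprc at −0.12 and Cd53 at −0.01, and all 3 were above 0 after rescaling. Of 12 macrophage genes 10 were tested and 0 passed, with 10 above 0, a median of 0.32 and 0 at an unadjusted p under 0.05 in limma. After rescaling the median was 0.49 and 2 had an unadjusted p under 0.05 with higher values. Before rescaling, 79.5% of all tested genes were below 0 and 1.12% had such a p with higher values. These shares were not counted after rescaling. Cd68, a lysosomal protein of macrophages, had the smallest p and averaged 4.39 ± 2.09 FPKM in K320E-skm against 2.23 ± 1.42 in wild-type (SD, n = 4 each), a log2 fold change of 0.76 (SE 0.38; limma adjusted p = 0.410). Lyz2, lysozyme, had 0.38. Macrophage sums ran from 56.1 to 146 FPKM in K320E-skm and from 49.8 to 142 in wild-type.

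Markers of other antigen-presenting cells and of T cells were low. Of 9 dendritic cell genes 1 was tested, Zbtb46, a transcription factor of classical dendritic cells, with a log2 fold change of −0.03 (0.08 after rescaling; limma adjusted p = 0.928). Their sums were 3.38 to 4.33 FPKM in K320E-skm and 2.60 to 7.21 in wild-type. No B cell gene of 7 passed the filter, with sums of 0.286 to 1.54 and 0.354 to 5.42 FPKM, and the highest was wild-type 1. No T cell gene of 8 passed, with sums of 0.732 to 2.28 and 0.830 to 4.59 FPKM, and the highest were wild-type 1 and K320E-skm 3. In each of these last lists 4 genes, among them Ms4a1 of B cells and Cd3e of T cells, were listed at 0 in at least 1 library. Wild-type 1 and K320E-skm 3 were also the highest in Cd74.

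**Figure D4:**
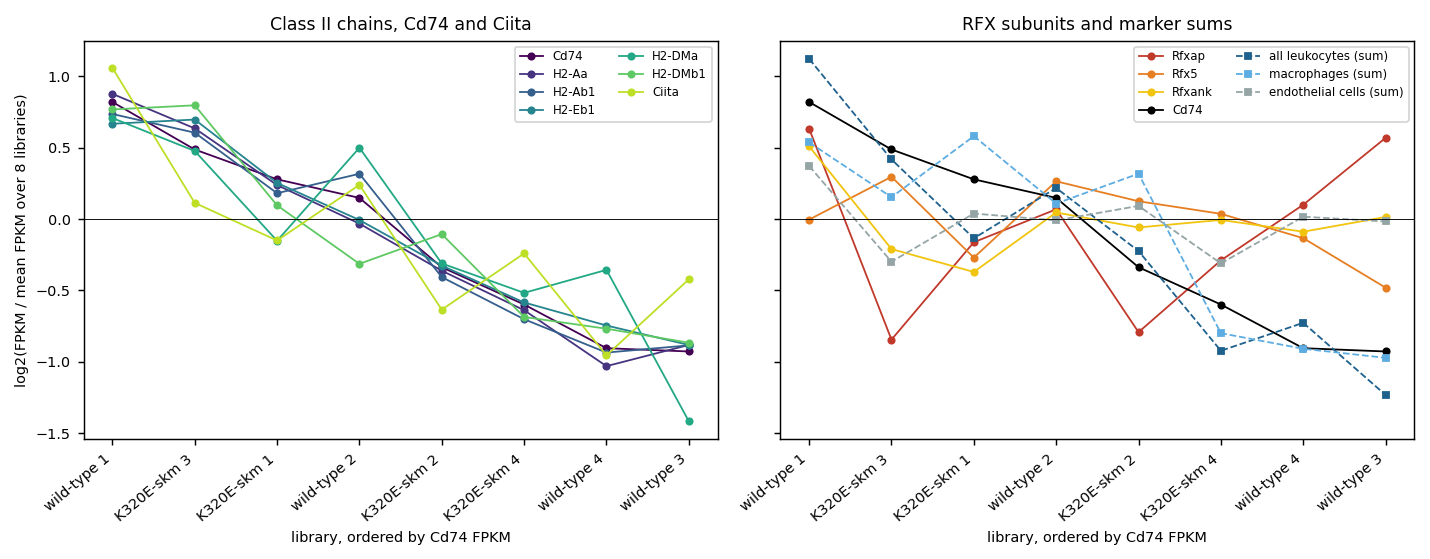
Log2 of FPKM over the mean of 8 libraries (vertical axes) for the class II genes, Cd74 and Ciita (left) and for the RFX subunits, Cd74 and summed marker lists (right), with libraries ordered by Cd74 from wild-type 1 to wild-type 3. The chain lines run down beside Cd74, the macrophage sum peaks in K320E-skm 1 at 146 FPKM and is low in the last 3 libraries, and Rfxap is high at both ends.

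Endothelial cells and muscle fibres served as the other tissue lists. Of 6 endothelial genes 0 passed, 6 were below 0, 1 of them at an unadjusted p under 0.05 in limma, and the median was −0.23 (−0.08 after rescaling, with 4 of 6 below 0), where 79.5% of all tested genes were below 0 and 12.0% had such a p with lower values. Emcn, a sialomucin, had −0.41, Kdr, a VEGF receptor, −0.30 and Cldn5, a tight junction protein, −0.41. All 5 muscle fibre genes analysed were abundant, with sums between 9472 and 12330 FPKM, and 0 passed. Of the fibre genes 4 were below 0, 1 of them at an unadjusted p under 0.05 in limma, and the median was −0.16 (0.03 after rescaling). Actn3, the alpha-actinin of fast fibres, had −0.53, Ckm, muscle creatine kinase, −0.17 (0.01 after rescaling) and Myh1, the IIx myosin, 0.31.

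The partners of RFX at the promoter gave no call. All 12 genes of NF-Y, the CREB family and the CIITA cofactors were tested and 0 passed in limma, with 11 below 0, 6 of them at an unadjusted p under 0.05, and a median of −0.28. Of all tested genes, 79.5% were below 0 and 12.0% had such a p with lower values. Before rescaling, their summed FPKM was 60.3 to 72.8 in K320E-skm and 76.0 to 93.3 in wild-type, without overlap. This gap depends on the library scale. Median-ratio rescaling divides the highest library, wild-type 1, by 1.28 and the other libraries by 0.905 to 1.04. Nfyb, a histone-fold subunit of NF-Y, was at 5.32 ± 0.434 and 7.58 ± 1.74 FPKM (SD, n = 4 each), a log2 fold change of −0.42 (SE 0.13; limma adjusted p = 0.310). Kat2b, an acetyltransferase, had −0.39 (limma adjusted p = 0.337) and Nfya, the NF-Y subunit that reads CCAAT, had −0.38 (limma adjusted p = 0.339). After median-ratio rescaling the median of these 12 was −0.13, and 2 of them had an unadjusted p under 0.05 with lower values.

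Of the other RFX family members and the Rfxank paralog, 2 of 8 were tested and 0 passed in limma at either threshold. Ankra2, the paralog, had −0.23, and Rfx7 had −0.12 (0.03 after rescaling). Of 10 genes that carry the interferon gamma signal to Ciita, 8 were tested and 0 passed. Of these 8, 6 were below 0 and 2 above, and 1 had an unadjusted p under 0.05 in limma with lower values. Of all tested genes, 79.5% were below 0 and 12.0% had such a p with lower values. The list median was −0.10 (0.06 after rescaling, when 1 had an unadjusted p under 0.05 with lower and 1 with higher values). Shares over all tested genes were not counted after rescaling. Irf2, which acts on the inducible promoter of Ciita, averaged 3.37 ± 0.240 FPKM in K320E-skm against 4.84 ± 0.734 in wild-type (SD, n = 4 each), a log2 fold change of −0.41 (SE 0.12; limma adjusted p = 0.310). The receptor kinases Jak2 and Jak1 had −0.26 and −0.23 (limma adjusted p = 0.397 and 0.457). Before rescaling, Irf2, Jak2 and Jak1 were 3 of 8 tested genes with lower values in K320E-skm and no overlap, against 9.59% of all tested genes. After median-ratio rescaling their log2 fold changes were −0.27, −0.11 and −0.06. Overlap after rescaling was not counted.

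Of 10 other genes of class II loading and processing, 5 were tested and 0 passed in limma, 0 of them at an unadjusted p under 0.05. Of these 5, 4 were above 0 and 1 below, with a median of 0.44 (0.61 after rescaling, when 1 had an unadjusted p under 0.05 with higher values). Before rescaling, 79.5% of all tested genes were below 0, and 12.0% had such a p with lower and 1.12% with higher values. These shares were not counted after rescaling. Ctsl, the cathepsin that degrades the invariant chain in some cells, averaged 48.5 ± 11.5 FPKM in K320E-skm against 34.9 ± 6.14 in wild-type (SD, n = 4 each), a log2 fold change of 0.44 (SE 0.20; limma adjusted p = 0.380). Ifi30, the lysosomal thiol reductase GILT, had 0.45 (limma adjusted p = 0.558). Sppl2a, the protease that clears the last fragment of CD74, had −0.26 (limma adjusted p = 0.442). The chains H2-DMb2, H2-Oa, H2-Ob and H2-Eb2 did not reach the filter.

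**Figure D5:**
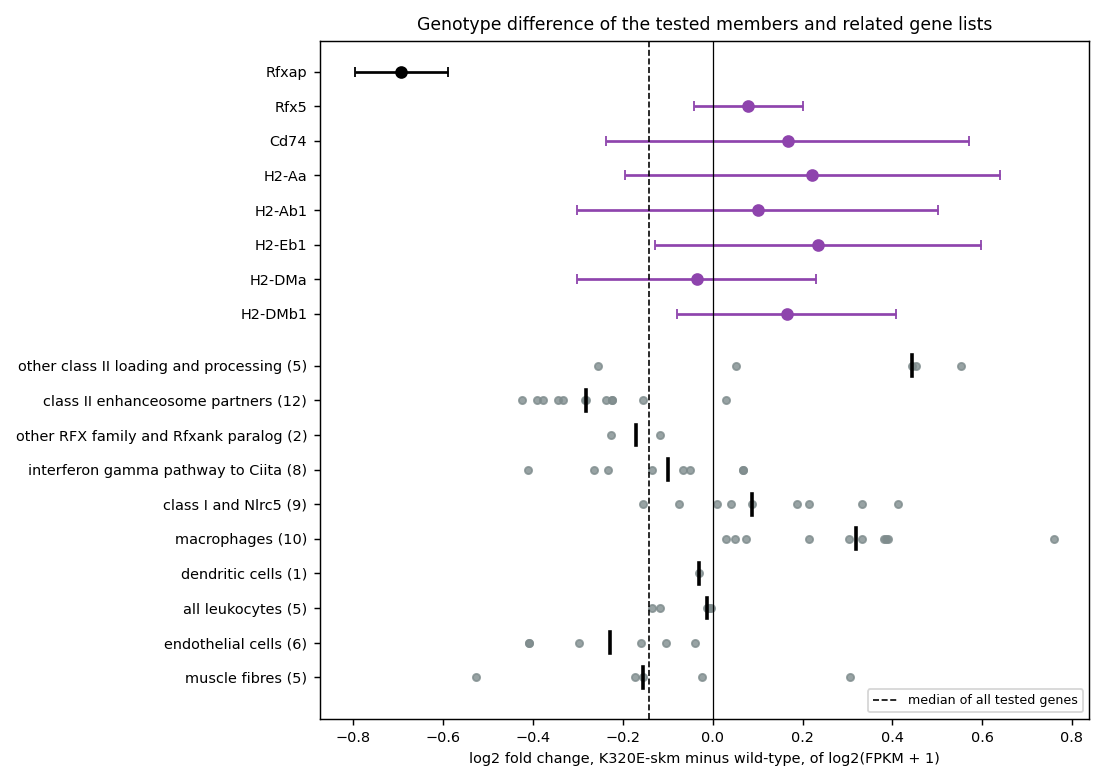
Log2 fold change of log2(FPKM + 1), K320E-skm minus wild-type (horizontal axis), for the 8 tested members with SE bars (n = 4 libraries per genotype) and for the tested genes of the other lists (grey points, black tick at the list median, number tested in brackets). The dashed line is the median of all tested genes, −0.14; Rfxap, chosen by this value, lies at −0.69 and the other members between −0.04 and 0.23.

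Genes with the most similar profile over the 8 libraries were named by Pearson's r of log2(FPKM + 1), as a description. For Rfxap they were Tnnc2, the troponin C of fast fibres (r = 0.973), Prkag3, an AMPK subunit of fast muscle (r = 0.972), and Metap2, a methionine aminopeptidase (r = 0.967). Tnnc2 averaged 4704 ± 381 FPKM in K320E-skm against 5772 ± 339 in wild-type (SD, n = 4 each). For Cd74 they were Plac8 (r = 0.971), Slfn2 (r = 0.969) and the leukocyte tetraspanin Cd53 (r = 0.968). Rfxap and Cd74 had no gene in common among these.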

How the data were processed

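The authors deposited FPKM for 48328 Ensembl genes in 8 libraries. TopHat2 2.0.10, Cufflinks 2.1.1, CASAVA and build mm10 are named in the submitters' processing notes, which give neither annotation release nor strand setting. Cufflinks divides fragments among overlapping genes, and a value of exactly 0 may be an estimate that failed. GENCODE M21 (GRCm38) gave symbols for 47864 IDs, and 464 were unmatched. Relative depths read from the lowest values ran from 1.00 to 1.30.

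In R 4.3.3, limma 3.58.1 was fitted to log2(FPKM + 1) with sex label and genotype as terms, on genes with at least 1 FPKM in at least 4 libraries, two-sided, with Benjamini-Hochberg adjusted p under 0.05 as the threshold. Because of the pseudocount, fold changes of low genes understate their FPKM ratio. Ratios and untested members were compared by exact permutation over 70 assignments of 4 against 4, whose smallest p is 0.0286. The fit was tested on simulated data. Python 3.11.15 with pandas 2.3.3, SciPy 1.17.1 and matplotlib 3.10.9 did the rest.

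The members and lists were chosen with earlier results of these data known. All 10 members were named; of each other list up to 3 tested genes with the smallest p; for Rfxap and Cd74 the 3 genes of highest r; the nearest protein-coding gene on each side of Rfxap; and Twnk. A gene meeting this rule is not reported here. Ms4a1, Cd3e, Ptprc, C1qa, Cd79a and Tnnc2 values were chosen for print after they were seen, as was the spacing of the motif pair. Acta1, of the muscle fibre list, was not analysed here. Alternatives were a pseudocount of 0.1, other filters, quantile normalization, median-ratio rescaling, leaving out the sex term, a replicate block, robust or weighted fits and leaving out each library. Median-ratio rescaling without the sex term was added after seeing the data. Shares over all tested genes were counted before rescaling only, so list counts after rescaling have no such share beside them.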

Additional observations from a re-analysis of the deposited data

Results flagged for a closer look

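In 7 of 50 groups of 4 libraries tested, the highest or lowest library stood far from the other 3. Chance alone gives about 1 in 20 for independent groups. These groups share the same 8 libraries, so the 7 do not measure an excess. In wild-type, the library numbered 1 was the highest in 4 of the 7. Its B cell sum was 5.42 FPKM against 0.354 to 1.02 in the others, and its T cell sum was 4.59 against 0.830 to 1.17. Its endothelial sum was 55.8 FPKM against 42.6 to 43.6. The sum of the other RFX family genes with Ankra2 was 13.2 against 8.57 to 9.22. These sums were not rescaled, and median-ratio rescaling divides wild-type 1 by 1.28 and the other libraries by 0.905 to 1.04. The overall scale of wild-type 1 enters these sums and was not separated from them. In K320E-skm, library 3 had the lowest ratio of Cd74 to the summed chains, 0.664 against 0.754 to 0.767, and the highest T cell sum, 2.28 FPKM against 0.732 to 0.891. K320E-skm 4 had the lowest sum of the other class II loading and processing genes, 66.1 FPKM against 99.0 to 106.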

How the results depend on the processing

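The count of members other than Rfxap past the threshold was 0 under every alternative run. A fit with a replicate block and no sex label also gave 0 of 7, with Cd74 at 0.17 (SE 0.29); deviations of same-numbered libraries correlated at 0.156, 0.023, 0.044 and 0.040, so the numbers were not taken as pairs. Rfxap ranged from −0.71 to −0.67 when 1 library was left out. It moved further with the scale used. It was −0.545 under median-ratio rescaling, −0.546 under quantile normalization and −0.844 with a pseudocount of 0.1.

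Signs changed for small log2 fold changes. Under median-ratio rescaling, with or without the sex term, H2-DMa was 0.096, Rfx7 0.025, Zbtb46 0.081, Laptm5 0.0063, Ptprc 0.024, Cd53 0.11 and Ckm 0.0098. Quantile normalization gave 0.085 for H2-DMa, 0.014 for Rfx7, 0.087 for Zbtb46, 0.016 for Ptprc, 0.094 for Cd53 and 0.026 for Ckm. Array weights raised Cd74 to 0.76, H2-Aa to 0.84, H2-Ab1 to 0.71, H2-Eb1 to 0.74 and H2-DMb1 to 0.46, none past the threshold, and gave 0.32 for H2-DMa, 0.093 for Zbtb46, 0.18 for Laptm5, 0.32 for Ptprc and 0.39 for Cd53. A pseudocount of 0.1 gave 0.0032 for H2-DMa and 0.017 for Cd53.

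Leaving out 1 library gave −0.12 to 0.56 for Cd74, −0.055 to 0.65 for H2-Aa, −0.19 to 0.46 for H2-Ab1, −0.020 to 0.59 for H2-Eb1, −0.28 to 0.23 for H2-DMa and −0.018 to 0.42 for H2-DMb1. It gave −0.26 to 0.036 for Rfx7, −0.12 to 0.058 for Zbtb46, −0.34 to 0.14 for Laptm5, −0.37 to 0.23 for Ptprc, −0.22 to 0.29 for Cd53 and −0.027 to 0.62 for Myh1. Log2 ratio differences were 0.032 to 0.20 for H2-Aa to H2-Ab1, −0.54 to −0.085 for H2-DMa to H2-DMb1 and −0.047 to 0.023 for Cd74 to the chains. The causes were not tested. Genes near or under 1 FPKM, such as Ciita and Rfxank, are limited by depth.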

Other observations

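Class I molecules present peptides from inside the cell, and their promoters also bind RFX, with Nlrc5 as the coactivator. Of 10 genes of this list 9 were tested and 0 passed in limma, 0 of them at an unadjusted p under 0.05. Of these 9, 7 were above 0 and 2 below, with a median of 0.09 (0.27 after rescaling, when 1 had an unadjusted p under 0.05 with higher values). Before rescaling, 79.5% of all tested genes were below 0, and 12.0% had such a p with lower and 1.12% with higher values. These shares were not counted after rescaling. Psmb10, a subunit of the immunoproteasome, averaged 5.19 ± 1.77 FPKM in K320E-skm against 3.65 ± 1.34 in wild-type (SD, n = 4 each), a log2 fold change of 0.41 (SE 0.24; limma adjusted p = 0.458). Tap1 and Tap2, the chains of the peptide transporter, had 0.33 and −0.16 (limma adjusted p = 0.603 and 0.696). Summed FPKM of the list ran from 160 to 306 in K320E-skm and from 126 to 297 in wild-type.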
